A study of Mus musculus with 2 samples.

Results

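The cells described here are hormone-sensing luminal cells of the wild-type mouse mammary gland that carry transcripts of Fxyd2, Bmp3, Cdh13, Pcp4 and Ido1. They were chosen by their own UMI counts (unique molecular identifiers, which count captured RNA molecules). Of 8993 barcodes in the WT library, 7406 held at least 500 genes and 1000 UMIs with at most 10% mitochondrial UMIs, and 3016 of these carried at least 5 UMIs of Areg, Pgr, Esr1 and Cited1 together per 10000, the hormone gate. A cell became a Fxyd2-Cdh13 cell when it had UMIs of at least 2 genes of set A (Fxyd2, Bmp3, Cdh13, Pcp4, Ido1) and of more genes of set A than of set B (Fgb, Fgg, Upk3a, Pir, Calca). That left 791 cells, 26.23% of the gated WT cells (exact binomial 95% interval 24.66 to 27.84) and a small part of the 18568 barcodes in both libraries. The 1713 gated WT cells with more set B than set A genes, called Fgb-Calca cells below, were the comparison, and 512 gated cells belonged to neither.

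The study sequenced luminal cells sorted from mammary glands of FVB/NJ mice aged 3.5 months, with 1 library per genotype, both carrying a Sox9-GFP reporter. The WT library has the genotype Sox9-GFP, and the second library has the genotype Sox9-GFP;C3-TAg. C3-TAg mice carry SV40 large T antigen under a C3(1) regulatory region and develop mammary tumours. The sources used here do not say how many mice gave each library. With 1 library per genotype no test between genotypes was possible, and no p-value is given. Intervals cover counting error only.

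The mammary epithelium has an outer basal layer and an inner luminal layer, and the luminal layer holds secretory-lineage cells and hormone-sensing cells. Hormone-sensing cells carry the receptors for oestrogen, progesterone and prolactin, and pass the signal on to neighbouring cells through secreted factors such as amphiregulin, WNT4 and RANKL. Prolactin acts through its receptor, JAK2 and STAT5, and the SOCS family gene Cish is an early STAT5 target that feeds back on the receptor. Fxyd2 encodes the gamma subunit that regulates the sodium pump, Bmp3 a secreted BMP-family ligand, Cdh13 a cadherin tethered to the membrane by a lipid anchor, Pcp4 a small calmodulin-binding protein and Ido1 an enzyme that degrades tryptophan.

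Sequences of 3 promoters are shown because they belong to genes on which the description turns. Pcp4 is the one set A gene, 1 of 5, that has an entry among the promoters used here. Ang4 is among the genes with the highest ratios, and Cish is an early STAT5 target. STAT5 activity was not measured. They come from RefSeq on GRCm38.p6, run from 250 bases before to 50 bases after the transcript start, and show matches to TTCNNNGAA, the core that STAT factors bind, in capitals. Pcp4 lies at chr16:96467356-96467655 on the plus strand, Ang4 at chr14:51773541-51773840 on the minus strand and Cish at chr9:107296409-107296708 on the plus strand.
Pcp4: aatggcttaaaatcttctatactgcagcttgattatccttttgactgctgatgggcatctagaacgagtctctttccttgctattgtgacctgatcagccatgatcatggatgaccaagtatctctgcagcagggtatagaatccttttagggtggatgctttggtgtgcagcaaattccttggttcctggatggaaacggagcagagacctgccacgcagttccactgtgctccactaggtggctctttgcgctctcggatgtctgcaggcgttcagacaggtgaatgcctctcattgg
Ang4: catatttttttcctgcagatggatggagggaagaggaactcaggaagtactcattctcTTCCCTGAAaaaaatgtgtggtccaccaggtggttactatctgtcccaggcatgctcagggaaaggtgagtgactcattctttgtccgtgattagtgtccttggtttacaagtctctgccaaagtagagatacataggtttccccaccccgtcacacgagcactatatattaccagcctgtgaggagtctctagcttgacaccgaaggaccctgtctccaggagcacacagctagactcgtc
Cish: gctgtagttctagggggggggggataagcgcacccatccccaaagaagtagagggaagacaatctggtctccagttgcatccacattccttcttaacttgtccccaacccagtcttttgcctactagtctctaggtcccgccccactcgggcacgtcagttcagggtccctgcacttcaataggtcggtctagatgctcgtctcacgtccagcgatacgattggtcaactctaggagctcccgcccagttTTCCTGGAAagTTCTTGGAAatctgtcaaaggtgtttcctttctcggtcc
The motif was searched on both strands, and it occurred in 8.298% of 32851 RefSeq promoters of the same length. The Cish sequence held 2 matches, which begin at bases 1 and 12 after the start. Ang4 held 1 match, beginning at base -192, and Pcp4 held 0. Of the 15 genes highest in Fxyd2-Cdh13 cells, 11 had an entry and 1 of those 11, Ang4, held the motif. A match describes letters only, and binding was not measured.

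Markers outside the rule matched the label of luminal hormone-sensing cells. Immune, basal and most fibroblast markers were rare, while transcripts of secretory luminal cells were present at a lower level than in cells under the hormone gate. Of the 8 hormone-sensing markers that were not gate genes, 7 were higher by at least 1.5-fold than in the 4390 WT cells under the hormone gate and Gata3, which other luminal cells also express, was lower. Foxa1 was at 120 CPM (UMIs of the gene per 1000000 UMIs) against 5.05 CPM and Prom1 at 132 against 3.41 CPM. Prlr, the prolactin receptor, was seen in 99.9% of 771 Fxyd2-Cdh13 cells thinned to 5000 UMIs each, against 28.0% of 4198 cells under the gate. The other 20 Fxyd2-Cdh13 cells were shallower than that and were left out. The 12 secretory markers summed to 5781 CPM against 64354 CPM under the gate, with Csn2, beta-casein, at 1931 CPM and Spp1, osteopontin, at 1785 CPM, and the source of these transcripts was not tested. Without thinning, a UMI of the immune marker Ptprc was seen in 1 of the 791 cells. Krt5, a basal keratin, was seen in 5 of them and Col1a1, a fibroblast collagen, also in 5. The fibroblast list was represented by Dcn alone among its 10 genes, at 581 CPM in Fxyd2-Cdh13 cells and 619 CPM in Fgb-Calca cells. Sox9, whose reporter the mice carry, stood at 506 CPM in Fxyd2-Cdh13 cells, 607 CPM in Fgb-Calca cells and 470 CPM under the gate. The T antigen and GFP have no row in the counts and were not analysed here.

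Depth was close between the sets. Fxyd2-Cdh13 cells had a median of 9245 UMIs, 2899 genes and 5.31% mitochondrial UMIs, and Fgb-Calca cells had 10122 UMIs, 2871 genes and 5.34%. The median under the gate was 11381 UMIs. A doublet caller marked 62 Fxyd2-Cdh13 cells (7.84%) and 195 Fgb-Calca cells (11.38%). The libraries shared 20 barcode sequences, of which 3 belonged to Fxyd2-Cdh13 cells, and none of these 3 passed the gate in C3-TAg.

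The genes of the rule are given as a description, since they chose the cells. Fxyd2 stood at 1808 CPM in Fxyd2-Cdh13 cells, 137 CPM in Fgb-Calca cells, 884 CPM in the gated cells of neither kind and 24.8 CPM under the gate. Bmp3 stood at 268, 23.2, 110 and 2.68 CPM in the same order. Fxyd2 was thus also plentiful in the cells that missed the rule. Cdh13 reached 113 CPM, Ido1 116 CPM and Pcp4 81.4 CPM in Fxyd2-Cdh13 cells, against 16.7, 9.72 and 4.16 CPM in Fgb-Calca cells. At 5000 UMIs per cell, 92.2% of Fxyd2-Cdh13 cells had a UMI of Fxyd2, 62.4% of Bmp3, 39.0% of Cdh13, 21.7% of Ido1 and 17.4% of Pcp4. Without thinning these shares were 97.1%, 82.8%, 55.6%, 29.2% and 22.1%. Under the gate the thinned shares were 3.24%, 0.667%, 0.619%, 0.405% and 0.405%. Among cells under the gate, 57 had the set A pattern. They held the set A genes, which chose them, at 1204 CPM together, and Csn2 at 10053 CPM. The source of the set A transcripts under the gate was not tested.

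**Figure D1:**
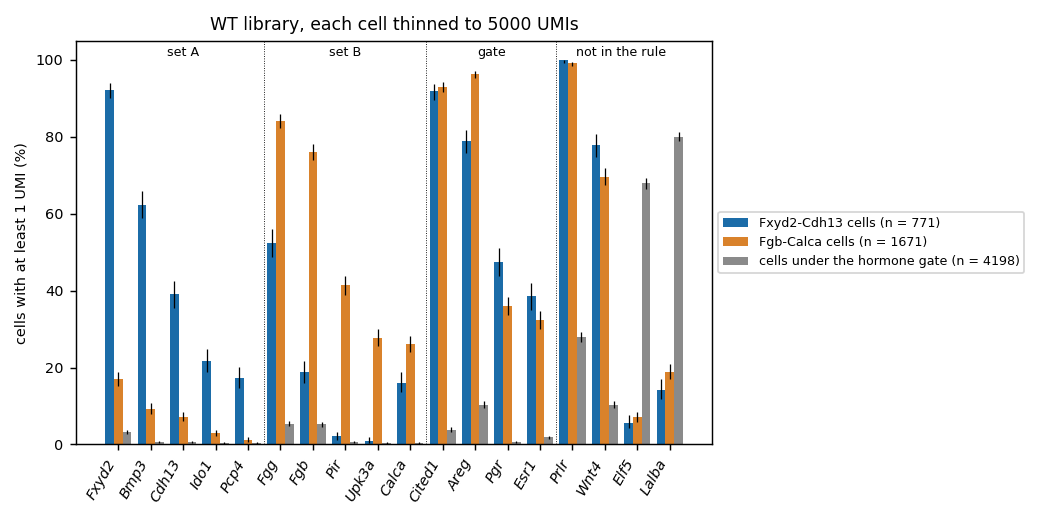
The vertical axis gives the percentage of WT cells with at least 1 UMI of each gene after thinning to 5000 UMIs, with exact binomial 95% intervals, for Fxyd2-Cdh13 cells, Fgb-Calca cells and cells under the hormone gate. The first 14 genes chose the cells, and of the others Prlr is seen in 99.9% of Fxyd2-Cdh13 cells and Elf5, a secretory-lineage factor, in 5.71%.

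Most Fxyd2-Cdh13 cells showed only some of the set A genes. Exactly 2 of the 5 were seen in 280 cells, 3 in 356 cells, 4 in 134 cells and all 5 in 21 cells. The most frequent combinations were Fxyd2, Bmp3 and Cdh13 in 187 cells (23.6%) and Fxyd2 with Bmp3 in 165 cells (20.9%). Set B transcripts were common in these cells too. At least 1 set B gene was seen in 622 cells, and 169 cells had none. Fgg, the fibrinogen gamma chain, stood at 689 CPM in Fxyd2-Cdh13 cells, against 1894 CPM in Fgb-Calca cells and 22.4 CPM under the gate. Fgb, the beta chain, stood at 222, 2230 and 16.7 CPM, and Calca, the calcitonin gene, at 173, 244 and 2.79 CPM. Upk3a, a uroplakin, and Pir were nearly absent from Fxyd2-Cdh13 cells at 2.71 and 4.19 CPM, against 208 and 163 CPM in Fgb-Calca cells. The 5 set B genes were thus not lower to the same extent.

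The gate genes split as well. Areg, the gene of amphiregulin, was at 1705 CPM in Fxyd2-Cdh13 cells and 3612 CPM in Fgb-Calca cells. Pgr was at 138 against 92.5 CPM, Esr1 at 96.5 against 70.0 CPM and Cited1, an oestrogen receptor coactivator, at 1444 against 1240 CPM. The summed gate value per 10000 UMIs ran from 5.01 to 164 in Fxyd2-Cdh13 cells with a median of 29.4, against a median of 47.5 in Fgb-Calca cells.

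Cells near the edges of the rule were intermediate in Ly6c1 but not in every gene. The 202 cells with 2 set A genes and 1 set B gene lay just inside and carried Ly6c1, a surface antigen gene outside the rule, at 84.7 CPM. The 226 cells with 2 of each lay just outside and carried it at 67.9 CPM. The 43 cells with 1 set A gene and no set B gene were also outside, with 34.4 CPM of Ly6c1 and 8709 CPM of Csn2. Within the rule Ly6c1 stood at 85.3 CPM in cells with 2 set A genes, 92.7 CPM with 3 and 151 CPM with 4 or 5. Ang4 did not follow that order, at 127, 118 and 110 CPM. At the gate, 86 cells with a gate sum of 5 to 10 lay just inside, with Prlr at 2424 CPM, Csn2 at 6233 CPM and R3hdml, a gene low in Fxyd2-Cdh13 cells as a whole, at 23.6 CPM. Outside it, 40 cells with the set A pattern and a gate sum of 2 to 5 carried Prlr at 1955 CPM.

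Against Fgb-Calca cells, and leaving the 14 rule genes out, the contrast was led by Ly6c1, Epb41l3, Sv2c and Mal on the high side and by Glycam1, Itih2 and R3hdml on the low side. The comparison covered 11861 genes with at least 20 UMIs over both sets. Of these, 1037 were higher by at least 1.5-fold (8.74%) and 799 were lower (6.74%). The median log2 ratio over all of them was 0.10, and scaling by the trimmed mean would lower each ratio by 0.12, which gives 701 higher and 1054 lower genes. Since the contrast is that of the rule, its ratios describe these cells and are not tested.

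Ly6c1 stood at 103 CPM (95% interval 96.1 to 110.2) in Fxyd2-Cdh13 cells and 21.7 CPM in Fgb-Calca cells, a log2 ratio of 2.24 (2.07 to 2.41). In the C3-TAg library, where cells chosen by the same rule carried almost no Cdh13, they gave 63.4 and 14.5 CPM, a log2 ratio of 2.13. The gene was thus higher on the set A side in both libraries by a similar factor. Ly6c1 lies at chr15:75044018-75048830 on the minus strand and has close paralogs in the Ly6 cluster. Whether reads of these paralogs were counted for Ly6c1 was not tested. Epb41l3, a membrane-skeleton protein of the band 4.1 family, stood at 63.5 against 14.3 CPM, and at 40.8 against 16.9 CPM in C3-TAg. Sv2c, a synaptic vesicle protein gene, stood at 57.2 against 14.4 CPM, and at 44.4 against 17.2 CPM in C3-TAg. Mal, a protein of apical membrane transport, stood at 66.9 against 17.1 CPM, and at 17.0 against 5.41 CPM in C3-TAg. These 3 genes were all higher on the set A side in each library.

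Ang4 and Ang5, secreted ribonucleases of the angiogenin family, stood at 120 and 108 CPM against 31.4 and 29.8 CPM. They are related genes, and whether reads of one were counted for the other was not tested. Their values are thus not taken as separate evidence. Id3, a helix-loop-helix inhibitor that BMP signals induce, stood at 173 against 49.1 CPM, a log2 ratio of 1.81 (1.70 to 1.93), and at 135 against 62.5 CPM in C3-TAg. Cldn8, a tight-junction claudin, stood at 57.6 against 21.2 CPM, and at 32.1 against 10.9 CPM in C3-TAg. Gem, a small GTPase, Cysrt1, Tmem86a, Galnt18, a glycosyltransferase gene, and Mum1l1 complete the 15 highest genes except for a pair that C3-TAg did not share.

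That pair was Tph1 and Nr4a1. Tph1 encodes the tryptophan hydroxylase that starts serotonin synthesis outside the brain, and it was the most abundant of the 15 genes. It stood at 509 CPM in Fxyd2-Cdh13 cells and 180 CPM in Fgb-Calca cells of the WT library, a 2.82-fold difference (log2 interval 1.43 to 1.56). In C3-TAg it stood at 283 and 285 CPM, a log2 ratio of -0.01 (-0.13 to 0.11). Tph1 was also a gene of gated cells as a whole, at 7.69 CPM under the gate. It was seen in 551 of the 791 Fxyd2-Cdh13 cells. Nr4a1, an immediate early nuclear receptor, stood at 52.7 against 16.3 CPM in WT but at 42.4 against 66.5 CPM in C3-TAg.

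On the low side, Itih2, an inter-alpha-trypsin inhibitor heavy chain, stood at 7.03 CPM in Fxyd2-Cdh13 cells and 55.8 CPM in Fgb-Calca cells, a log2 ratio of -2.99 (-3.40 to -2.60). In C3-TAg it stood at 5.15 against 55.6 CPM. R3hdml was at 43.0 against 272 CPM in WT and at 80.9 against 185 CPM in C3-TAg. Both were lower on the set A side in both libraries. Reg3g, an antimicrobial lectin, was at 13.2 against 55.3 CPM. Piezo2, a mechanically gated channel, was at 84.4 against 212 CPM and Kif5c, a kinesin heavy chain, at 50.9 against 140 CPM. Trbc2, a constant segment of the T cell receptor beta chain, was at 21.5 against 85.0 CPM, while the list of immune markers summed to 3.95 CPM in Fxyd2-Cdh13 cells and 3.46 CPM in Fgb-Calca cells. The part of T cells in the Trbc2 value was not tested.

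Glycam1, a mucin-like milk component, had the lowest ratio of all, at 32.8 against 462 CPM, but few cells set that value. Of its 9223 UMIs in Fgb-Calca cells, 4940 came from 1 cell and 94.6% from the 10 highest cells. The share of cells with a UMI at equal depth was 13.0% in Fxyd2-Cdh13 cells and 12.3% in Fgb-Calca cells. With cells of at most 5% mitochondrial UMIs alone the log2 ratio of Glycam1 was 0.04 in place of -3.82. Saa1, a serum amyloid gene, was also concentrated, with 88.5% of its Fxyd2-Cdh13 UMIs and 55.7% of its Fgb-Calca UMIs in the 10 highest cells. Itih2 and R3hdml were spread over 527 and 1269 Fgb-Calca cells.

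**Figure D2:**
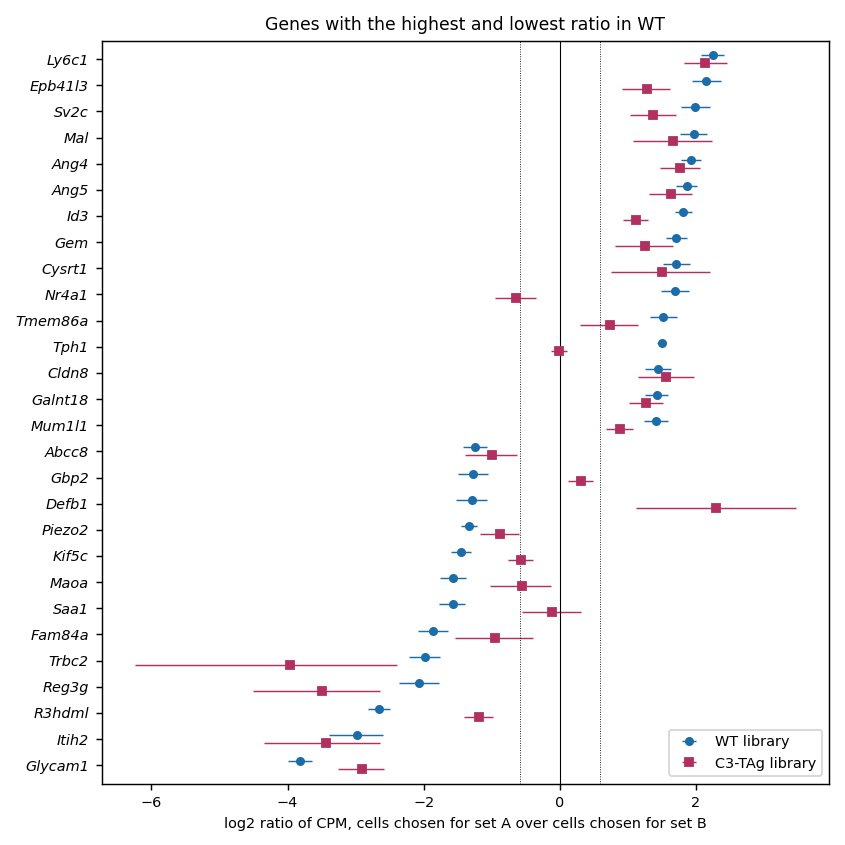
The horizontal axis gives the log2 ratio of CPM in cells chosen for set A (in WT the Fxyd2-Cdh13 cells) over cells chosen for set B (in WT the Fgb-Calca cells) for the 15 highest and 13 of the 15 lowest WT genes of at least 50 CPM in either set, with exact conditional 95% intervals for counting error, in WT (circles) and C3-TAg (squares). Dotted lines mark 1.5-fold, and in C3-TAg Tph1 and Saa1 lie near 0 while Nr4a1, Gbp2 and Defb1 lie on the other side of 0 from WT.

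Hormone receptors, their targets and cofactors stayed close between the sets. Among list genes of at least 20 CPM outside the rule, Cish, Socs2 and Prlr held the highest ratios. Of 24 measured genes of this list, 2 were higher by at least 1.5-fold and 0 lower, and the median of their log2 ratios was 0.27. Over all measured genes 8.74% were higher and 6.74% lower. Cish was at 54.5 against 29.2 CPM, a log2 ratio of 0.90 (0.72 to 1.08), and at 0.41 on the same log2 scale in C3-TAg. Socs2, another STAT5-induced feedback gene, was at 175 against 113 CPM, a log2 ratio of 0.63, and at 0.52 in C3-TAg. Prlr was at 2870 against 1930 CPM, a log2 ratio of 0.57 (0.55 to 0.60) in WT and 0.88 in C3-TAg. Foxa1, the pioneer factor of oestrogen receptor binding, had a log2 ratio of 0.44 and Gata3, the luminal fate factor, one of 0.25. Xbp1, a transcription factor of secretion and a known oestrogen target, had the lowest at -0.40. With trimmed-mean scaling 1 gene of the list was past 1.5-fold.

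Paracrine signals were uneven. Of 19 measured genes, Tnfsf11, Fst and Adm were higher and Btc, Cxcl12 and Nrg1 lower, of which all but Fst stayed below 20 CPM. The shares over all measured genes were 8.74% higher and 6.74% lower. Wnt4, which progesterone induces, was at 383 against 287 CPM, a log2 ratio of 0.41, and Wnt7b had the same ratio of 0.41. Fst, follistatin, a binder of activins, was at 23.2 against 6.81 CPM in WT with a log2 ratio of 1.77, and at -0.20 on that scale in C3-TAg. Igfbp5, which binds insulin-like growth factors, was at 200 against 291 CPM. Vegfa and Wnt5a had log2 ratios of -0.14 and -0.15. Tnfsf11, the gene of RANKL, was rare, with 52 UMIs in Fxyd2-Cdh13 cells and 24 in Fgb-Calca cells, or 6.41 and 1.20 CPM. Its log2 ratio was 2.42 (1.69 to 3.18) in WT. List genes below 20 CPM in both sets, here and in the lists that follow, were named after their values were seen.

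In the BMP, activin and TGF-beta list, 3 of 30 measured genes were higher and 4 were lower. Over all measured genes 8.74% were higher and 6.74% lower, so the list's count of higher genes is near that share. Id3 led, followed by Bmpr1b at 43.0 against 19.9 CPM and Bmpr1a at 90.5 against 63.3 CPM, both type I BMP receptors. Their log2 ratios were 1.11 and 0.52 in WT, and 0.88 and 0.74 in C3-TAg. Tgfbr2, the type II TGF-beta receptor, had a log2 ratio of -0.33. Inhba, the activin A subunit, had 7 UMIs in Fxyd2-Cdh13 cells and 218 in Fgb-Calca cells, a log2 ratio of -3.66 (-4.99 to -2.59). Acvr2b, an activin receptor, was the remaining high gene, and Tgfbr3, Bmp2 and Bmp7, each below 2 CPM, were the remaining low ones. The list median was -0.05.

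Among genes of sodium transport, a subunit of the pump that FXYD proteins accompany was on the high side. Atp1b1, the beta 1 subunit of the pump, was at 227 against 124 CPM, a log2 ratio of 0.87. Fxyd6 was at 97.0 against 51.6 CPM and Scnn1b, a subunit of the epithelial sodium channel, at 46.9 against 26.6 CPM. In C3-TAg the log2 ratios were 0.39 for Atp1b1, 0.33 for Fxyd6 and 1.31 for Scnn1b. Of the 24 measured genes of ion transport, 4 were higher, the fourth being Slc12a7, and Kcnn4, Fxyd4 and Clic6 were lower. The list thus went both ways, where all measured genes gave 8.74% higher and 6.74% lower. Clic6, a chloride channel family gene, turned to a log2 ratio of 0.33 without cells rich in milk transcripts (above 50 UMIs of the milk list per 10000). Fxyd3, the most abundant other family member, had a log2 ratio of 0.06.

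Genes of sterol and fatty acid synthesis were the list with the largest share on the high side. Of 28 measured, 12 were higher by at least 1.5-fold and 0 lower, where all measured genes gave 8.74% higher and 6.74% lower. The median was 0.37 on the log2 scale against 0.10 over all genes. Scd2, a fatty acid desaturase gene, was at 67.8 against 29.1 CPM. Srebf1 and Srebf2, the transcription factors of the pathway, had log2 ratios of 0.65 and 0.62. Scd1, another desaturase gene, had one of -0.06. With trimmed-mean scaling 9 were higher and 1 lower. In C3-TAg, 9 of 26 were higher and 1 lower, with a median of 0.48, where all genes measured there gave 8.72% higher and 8.63% lower.

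Immediate early genes, which respond to stimuli and to tissue dissociation, came next. Of 36 measured, 13 were higher and 0 lower, with a median of 0.23, where all measured genes gave 8.74% higher and 6.74% lower. With trimmed-mean scaling 9 were higher and 1 lower. Nr4a1 led, followed by Klf2 at 56.1 against 24.5 CPM and Hspb1, a small heat shock protein gene, at 549 against 261 CPM. Atf3 was at 589 against 299 CPM. Fos had a log2 ratio of 0.22, and Jun was lowest at -0.22. Per cell, the list took a median of 128 UMIs per 10000 in Fxyd2-Cdh13 cells, 103 in Fgb-Calca cells and 116 under the gate. The medians in C3-TAg were 131 and 109, and 5 of 35 genes were higher and 3 lower there. All genes measured in C3-TAg gave 8.72% higher and 8.63% lower, so the count of lower genes is near that share. The part of dissociation in these values was not tested. The NF-kB list had 7 of 30 genes higher and 2, Il6ra and Ccl2, lower, or 5 and 3 with trimmed-mean scaling. Before that scaling its count of lower genes is near the 6.74% over all measured genes, against 8.74% higher. Nfkbia, the inhibitor that NF-kB induces, was at 804 against 407 CPM, Nfkbie at 36.9 against 20.1 CPM and Tnfaip2 at 42.2 against 24.2 CPM. Il34, a ligand of the CSF1 receptor, had 64 UMIs in Fxyd2-Cdh13 cells and 2 in Fgb-Calca cells, a log2 ratio of 6.30 (4.39 to 9.38). It had 25 and 17 UMIs in the C3-TAg sets.

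Cadherin and junction genes were mostly close between the sets. Of 29 measured, 3 were higher and 2, the connexins Gjb2 and Gja1, lower, near the 8.74% and 6.74% over all genes. Cldn8, Nectin2 and Cldn3, at 596 against 377 CPM, were the high ones, while Cdh1, the epithelial cadherin, had a log2 ratio of 0.13 and Epcam one of 0.14. Keratins of the luminal layer were close, with log2 ratios of 0.25 for Krt8, 0.18 for Krt18 and 0.16 for Krt19. Of 12 measured retinoid and aldehyde genes Rxra, Rdh11 and Dhrs3, a retinal reductase gene at 140 against 88.6 CPM, were higher. Of 16 Notch genes Nrarp, Hes6 and Notch1, at 41.3 against 26.9 CPM, were higher and Maml2 was lower.

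Around Ido1, other genes of tryptophan and arginine use and checkpoint ligands were not on the high side. Of 15 measured, 0 were higher and 5 lower, where all measured genes gave 8.74% higher and 6.74% lower. Wars, the tryptophanyl-tRNA synthetase, was at 20.4 against 40.7 CPM, and Vtcn1, the inhibitory ligand B7-H4, at 22.7 against 39.5 CPM. Kynu, Cyp1b1 and Nt5e, the others, were below 5 CPM. Wars and Vtcn1 were lower in C3-TAg as well, with log2 ratios of -0.87 and -0.99. Arg1 and Arg2, the arginases, had log2 ratios of -0.13 and 0.31. Among interferon-stimulated genes 2 of 28 were higher and 6 lower, with Gbp2 at 24.9 against 60.2 CPM. Irf1, at 75.7 against 40.5 CPM, and Usp18 were the high ones. Among genes of MHC presentation 0 of 20 were higher and 4 lower, which were the class II genes Cd74, H2-Aa, H2-Ab1 and H2-DMa. All were rare. Cd74 was at 2.10 against 5.56 CPM and H2-DMa at 7.52 against 12.2 CPM. H2-Aa had 4 against 21 UMIs (log2 interval -3.09 to 0.47) and H2-Ab1 had 5 against 43. Under the gate Cd74, H2-Aa and H2-Ab1 were at 13.3, 2.49 and 4.96 CPM and H2-DMa at 1.43 CPM. Another class II gene, H2-DMb1, had a log2 ratio of 0.35, at 41.8 against 32.9 CPM. B2m, the class I light chain, had a log2 ratio of 0.42.

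**Figure D3:**
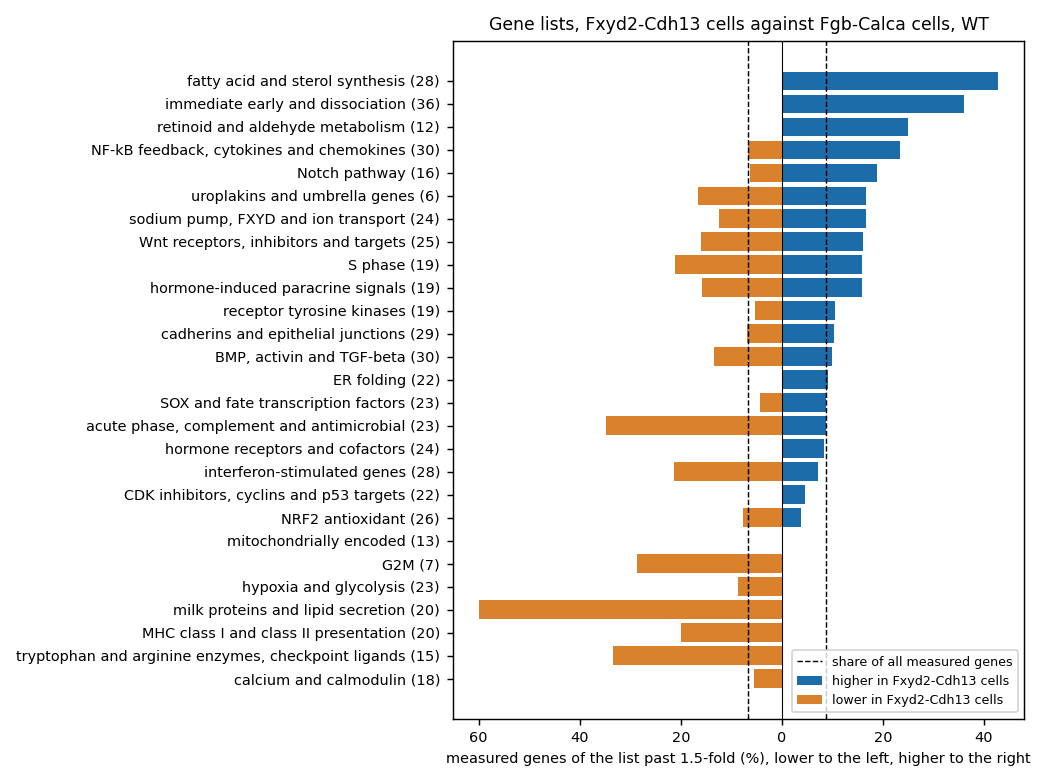
Bars give the percentage of the measured genes of each list (their number in brackets) that were higher (right) or lower (left) by at least 1.5-fold in Fxyd2-Cdh13 cells than in Fgb-Calca cells of WT, and dashed lines give the same share over all 11861 measured genes. Sterol and fatty acid synthesis reaches farthest to the right and milk proteins farthest to the left.

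Milk transcripts separated a minority of cells from the rest. Of 20 measured genes of milk proteins and lipid secretion, 12 were lower by at least 1.5-fold in Fxyd2-Cdh13 cells and 0 higher. The shares over all measured genes were 6.74% lower and 8.74% higher. Csn2 was at 1931 CPM in Fxyd2-Cdh13 cells, 3641 CPM in Fgb-Calca cells and 21895 CPM under the gate. The median cell differed little between the gated sets, at 8.75 UMIs of the list per 10000 in Fxyd2-Cdh13 cells and 9.08 in Fgb-Calca cells. More than 50 per 10000 were found in 63 Fxyd2-Cdh13 cells (7.97%), of which the doublet caller had marked 56, and in 209 Fgb-Calca cells (12.2%), of which it had marked 184. Without the cells above 50, 0 milk genes were lower and 1 was higher, a comparison chosen after seeing the data. The acute-phase list had 8 of 23 genes lower with those cells and 2 without them. The sterol list had 14 and the immediate early list 16 genes higher without those cells. Counts over all genes moved the same way, from 1037 to 1235 higher and from 799 to 688 lower. Whether these cells are doublets or cells with milk transcripts of their own was not tested.

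**Figure D4:**
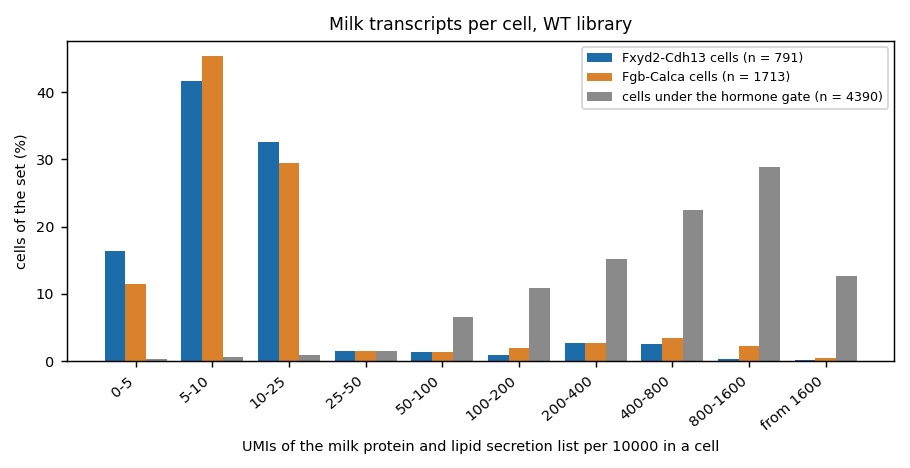
Bars give the percentage of WT cells in each range of milk-list UMIs per 10000, for Fxyd2-Cdh13 cells, Fgb-Calca cells and cells under the hormone gate. Both gated sets peak between 5 and 10 and have a thin tail above 50, where most cells under the gate lie.

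Milk genes also led the variation among Fxyd2-Cdh13 cells. At 5000 UMIs per cell the variance over the mean had a median of 1.08 over 2826 genes of at least 50 CPM, close to the value of 1 that counting alone gives, and reached 2 for 185 genes (6.55%). Csn2 had the highest value, 92.4, with 85.2% of its UMIs in the top 10% of cells. Fgb-Calca cells had a median of 1.067, and their values were 128.65 for Csn2, 126.82 for Csn1s2a and 100.75 for Spp1. Strong variation of milk genes was thus not particular to Fxyd2-Cdh13 cells. Csn1s2a, Spp1, Csn1s1, Trf, Csn3, Lcn2 and Ltf, genes of milk and of secretory cells, were among the next. Malat1, a nuclear RNA, had 66.2 and Tmsb4x, an actin-binding peptide gene, 25.4, and both were present in nearly every cell. Fos had 23.8. Calca had 17.5, with 92.6% of its UMIs in the top 10% of cells, so that this set B gene was high in few Fxyd2-Cdh13 cells. In Fgb-Calca cells it had 32.9, with 84.7% of its UMIs in the top 10% of cells. Calca was thus concentrated in few cells of both sets.

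The same rule chose fewer cells in the C3-TAg library. It took 283 of 2337 gated C3-TAg cells, 12.11% (10.81 to 13.5), against 26.23% in WT. At 5000 UMIs per cell the shares were 9.14% and 22.99%, and at 2000 UMIs 5.37% and 15.6%, so the WT share was higher at every depth. Genes of the rule themselves differed between the libraries, and Cdh13 was nearly absent from C3-TAg. It stood at 5.15 CPM in the C3-TAg cells of the rule against 113 CPM in WT, and was seen in 3.02% against 39.0% of thinned cells. Pcp4 was at 14.7 against 81.4 CPM and Ido1 at 40.03 against 116 CPM, while Fxyd2 was at 1454 against 1808 CPM and Bmp3 at 199 against 268 CPM. Only 1 C3-TAg cell of the rule had more than 3 set A genes. Genotype, mouse and library cannot be told apart here.

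Within C3-TAg the same contrast held 1005 genes higher (8.72%) and 995 lower (8.63%) of 11527. Of the 912 genes higher in WT and measured in both libraries, 321 were also higher in C3-TAg, which is 35.2% of the WT genes and 33.0% of the 973 C3-TAg genes. Of the 591 lower ones, 221 were lower in both, 37.4% and 26.0% of the respective lists. Among all 11185 genes measured in both, 8.70% were higher and 7.61% lower in C3-TAg. Of the 15 highest WT genes 13 were past 1.5-fold the same way in C3-TAg, and of the 15 lowest 10 were. Across 3028 genes of at least 50 CPM in either WT set Pearson's r was 0.70 and Spearman's rho 0.63, as a description across genes, which are not independent. The cells were chosen on the same genes in both libraries. Ang5, Ang4, Ly6c1, Ctsr and Tmprss6 were among the 8 highest genes within C3-TAg.

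**Figure D5:**
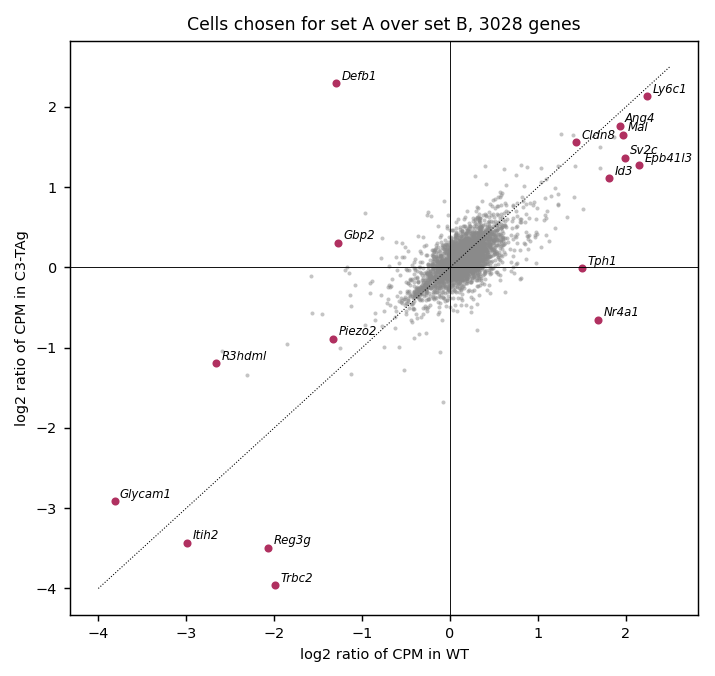
Each point is a gene of at least 50 CPM in either WT set, with its log2 ratio of CPM in cells chosen for set A over cells chosen for set B in WT (horizontal) and in C3-TAg (vertical), rule genes left out, and the dotted line marks equal ratios. Ly6c1, Ang4 and Mal lie near the line at the upper right, Tph1 and Nr4a1 lie below it and Defb1 at the upper left.

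The cells that the rule chose in the 2 libraries differed in genes of the cell cycle, the interferon response, paracrine signals, the acute phase and milk, among others. Of 10816 measured genes, 1052 were higher in WT (9.73%) and 1781 were lower (16.5%). The median log2 ratio was -0.12, and trimmed-mean scaling, which raises each ratio by 0.16, gives 1495 higher and 1207 lower genes. All but 1 of 22 S phase genes and 13 of 14 G2/M genes were lower in WT, and 0 were higher. Pclaf, a PCNA-binding protein of replication, had 0.123 CPM in WT against 56.3 CPM in C3-TAg. Top2a, the mitotic topoisomerase, had 0.987 against 61.0 CPM. At least 2 G2/M UMIs were found in 0.519% of thinned WT cells and 10.2% of C3-TAg cells, called doublets not removed. The doublet caller had marked 7.84% of these WT cells and 12.37% of these C3-TAg cells. C3-TAg cells under the gate had Top2a at 247 CPM, and the part of doublets in the difference was not tested. Without called doublets, 12 of the 18 S phase genes and 3 of the 4 G2/M genes that were still measured were lower. Among interferon-stimulated genes 17 of 27 were lower in WT and 1 higher, and Cxcl10 had 0.493 CPM against 95.1 CPM. Krt14 and Krt17, basal keratins, had 2.47 and 3.33 CPM against 95.5 and 60.6 CPM, and the basal marker list summed to 14.7 against 178 CPM, whose part in the result was not tested. After removal of doublets the log2 ratio of Krt17 went from -4.19 to -1.97 and that of Top2a from -5.95 to -3.32.

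On the high side of WT stood Ak1, an adenylate kinase, at 51.1 CPM against 3.96 CPM in C3-TAg, Dcn, decorin, at 581 against 95.1 CPM, and Tbx3, a luminal T-box factor, at 91.6 against 46.0 CPM. Of 16 paracrine genes 9 were higher in WT and 4 lower, where all measured genes gave 9.73% higher and 16.5% lower. Stc2, stanniocalcin 2, had a log2 ratio of 2.08 and Vegfa one of 1.31, while Wnt5a was lower at -1.15. Of 21 acute-phase genes 11 were higher and 3 lower, with Hp, haptoglobin, at a log2 ratio of 2.24 and Slpi, a protease inhibitor, at -2.64. Spp1, Fcgbp, Chil1 and Lalba were higher as well, and 11 of 19 milk genes were higher and 5 lower. Those 4 genes were also 8.36 to 13.1 times as high under the WT gate as in Fxyd2-Cdh13 cells. Milk transcripts set the libraries apart outside the rule too. Among cells under the gate, Spp1 fell from 23381 CPM with the WT genotype to 1497 CPM with C3-TAg. Lalba fell from 2876 to 425 CPM there and Csn2 from 21895 to 6167 CPM, while Glycam1 rose from 45.7 to 396 CPM. Whether the milk difference is particular to cells of the rule was not tested.

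Against WT cells under the gate, the widest contrast, 4753 of 12797 measured genes were higher (37.1%) and 2494 lower (19.5%). Trimmed-mean scaling lowers these ratios by 0.40 and gives 3005 and 3802. The highest genes of at least 50 CPM were Sv2c, Col8a1, Tmprss6, Cldn6, Tph1, Crym, Tbx3 and Agtr1a. Col8a1, a short-chain collagen gene, was at 668 against 9.12 CPM, Crym, which binds thyroid hormone, at 110 against 1.81 CPM and Agtr1a, an angiotensin receptor gene, at 101 against 1.73 CPM. The lowest were Ccl5, G0s2, Saa1, Col9a1, Spp1, Fam13a, Pigr and Csn1s2a. All 12 measured secretory markers were lower. Elf5 was at 8.56%, Csn2 at 8.82%, Csn3 at 9.55% and Cd14 at 13.1% of the level there, and Glycam1 at 71.8%.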

How the data were processed

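Cells sorted as luminal were profiled with 10X Chromium 3' version 3.1 chemistry, 10000 cells per sample submitted, per the labels' protocols, and 2 libraries were analysed. The submitters' processing notes name Cell Ranger 3.1.0 and mm10, and the deposited matrices hold whole UMI counts for 31053 genes in each cell, not normalized. Depth over all barcodes was 91133082 UMIs for WT and 91932121 UMIs for the C3-TAg library. The members and the gene lists were chosen with earlier results of these data known. Counts were summed over the cells of a set and divided by the summed UMIs (CPM). Genes needed 20 or more UMIs in the 2 sets together to count as measured, and a 1.5-fold ratio to count as higher or lower. Ratios carry exact conditional Poisson 95% intervals, levels exact Poisson and shares Clopper-Pearson intervals, all for counting error only. Ratio intervals were tested on simulated counts. Zero counts in a ratio were set to a floor of 3 counts per set. Named genes were the 15 highest and 15 lowest of at least 50 CPM (8 each in other comparisons), and up to 3 list genes of at least 20 CPM at each end. Some genes that this rule names are not reported here. No doublets were removed in the values reported first; Scrublet calls came from scanpy 1.11.5. Cells were thinned to 5000 or 2000 UMIs for shares. Gene positions come from GENCODE on GRCm38, matched by Ensembl ID. Other scalings, filters, gates and cell sets were tried. Python 3.11.15, numpy 2.4.6 and scipy 1.17.1 were used.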

Additional observations from a re-analysis of the deposited data

How the results depend on the processing

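The number of Fxyd2-Cdh13 cells was 316 with at most 5% mitochondrial UMIs, 511 with at least 3 set A genes and 169 with no set B gene, against 791, and 673 to 729 with thinning, a stricter gate, doublets removed or milk-rich cells left out (728). Against Fgb-Calca cells, genes of at least 50 CPM gave 144 higher and 52 lower, no filter on low counts gave 1426 lower, and cells with no set B gene gave 1563 higher and 1237 lower. Within C3-TAg, the 50 CPM filter gave 119 higher and 49 lower, no filter gave 1922 higher, and trimmed-mean scaling gave 734 higher and 1253 lower. Between libraries, the 50 CPM filter gave 227 higher and 263 lower and no filter 2707 lower. Against cells under the gate, trimmed-mean scaling gave 3005 higher and 3802 lower and the 50 CPM filter 1151 and 489. Of 2252 alternative ratios of named genes, 1705 stayed within the counting interval of the reported value and 541 moved beyond it. The other 6 changed sign from a reported ratio past 1.5-fold. Sign changes of smaller ratios were not counted separately. Glycam1 changed sign with the 5% mitochondrial limit (log2 ratio 0.0353). Without cells above 50 milk-list UMIs per 10000, Glycam1 had 0.0825, Clic6 0.3294, Saa2 0.2514 and Elf5 0.1249 against Fgb-Calca cells, and Cbr2 -0.0205 against C3-TAg. Glycam1 and other milk genes define that filter, so for them the change follows from its construction. For the other sign changes the cause was not tested. The direction held under every alternative run for 112 of 117 ratios past 1.5-fold. The alternative with at least 3 set A genes was not run in C3-TAg, where it left 35 cells, nor the milk limit against cells under the gate. No paired analysis was possible because each genotype has 1 library. Rare transcripts such as Tnfsf11, with 52 UMIs in all Fxyd2-Cdh13 cells, are limited by depth.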

Other observations

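A few more genes differed between the sets of WT cells. Tmsb4x, which binds actin monomers, was one of the most abundant transcripts of Fxyd2-Cdh13 cells, at 15084 CPM against 8915 CPM in Fgb-Calca cells and 2551 CPM under the gate, and its log2 ratio of 0.76 in WT became 0.06 in C3-TAg. Fabp4, a fatty acid binding protein of fat and endothelial cells, had 67 UMIs in Fxyd2-Cdh13 cells and 14 in Fgb-Calca cells. These are 8.26 and 0.701 CPM, and Fabp4 was higher under the gate, at 20.4 CPM. Cdh5, an endothelial cadherin, had 2 UMIs in Fxyd2-Cdh13 cells and 29 in Fgb-Calca cells, or 0.247 and 1.45 CPM. Among the ion transport genes, Slc12a7, a potassium-chloride cotransporter, stood at 18.3 against 4.91 CPM in WT and at 18.6 against 5.98 CPM in C3-TAg. These genes were picked after their values were seen.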
